A study of Mus musculus with 66 samples.

Results

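The 10 potassium channel genes Kcnh7, Kcnh1, Kcnh5, Kcnq3, Kcnd2, Kcnb2, Kcnma1, Kcnj3, Kcnt2 and Kcnip4 were taken by name out of 21938 protein-coding genes of the mouse annotation, and all of them have long bodies. Their bodies on GRCm38 run from 162 kb (Kcnj3) to 1135 kb (Kcnip4), and exons take 0.319% (Kcnip4) to 4.90% (Kcnq3) of a body. The histone marks H3K9me3 and H3K36me3 were measured by chromatin immunoprecipitation and sequencing (ChIP-seq) in the prefrontal cortex (PFC). The animals were adolescent mice of the inbred strain DBA/2J. Male and female mice were given 4 g/kg ethanol, as a 25% solution in water, or water alone by gavage, alternating 2 days of dosing with 2 days without from postnatal day 29 to 42, and the PFC was collected 24 h past the final dose. Each sample is the pooled PFC of 3 mice of 1 sex and treatment, so the spread within a group is that between pools of separate mice, and animals within a pool cannot be told apart. There were 6 ethanol and 5 water pools per sex, 22 in all, each with an H3K9me3 library, an H3K36me3 library and an input library of chromatin that was not precipitated. PFC is a mixture of cell types, so a mark carried by fewer cells and a weaker mark in each cell cannot be told apart.

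Potassium channels let potassium leave the neuron and so set its resting potential, the shape of the action potential and the rate of firing. The voltage-gated members open on depolarization, the calcium and sodium activated members open when these ions enter the cell, and the inward rectifier Kcnj3 is opened by G proteins. H3K9me3 is the mark of silenced, repeat-rich heterochromatin. H3K36me3 is laid down behind elongating RNA polymerase and is usually found over the bodies of transcribed genes, exons included.

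For each mark and pool the data are a list of islands, that is stretches of 200 bp windows in which ChIP reads stood above background, each with its ChIP reads and its input reads. The H3K9me3 lists held 41363 to 72480 islands over 130 to 217 Mb, with 5.73 to 14.2 M ChIP reads and 4.04 to 5.54 M input reads. The H3K36me3 lists were shallower, with 19617 to 61910 islands over 69.1 to 126 Mb, 1.70 to 4.79 M ChIP reads and 2.49 to 4.38 M input reads. The lists are not limited to significant islands: those at a false discovery rate (FDR) of 0.01 or lower numbered 12804 to 62374 for H3K9me3 and 2248 to 28294 for H3K36me3. The fewest were in female water 2 for H3K9me3 and in male ethanol 6 for H3K36me3. Male ethanol 4 had the most H3K9me3 reads and the fewest H3K36me3 reads. Female water 2 and male ethanol 4 stand apart in some of the values below. H3K36me3 libraries differed in where their islands lay. Protein-coding bodies take 38.2% of the genome and held 20.1 to 38.8% of the length of all listed H3K36me3 islands, and 18.8 to 80.7% of that of islands at an FDR of 1e-05 or lower. Over all listed islands the median library covered 0.601% of the bodies of 8 neuronal genes and 1.74% of 8 genes of other tissues, so these lists could not serve to check the labelled tissue.

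A sequence that every member carries lay under most of the recurrent islands of the channel genes, and it is shown first. The lines below give 100 bases of it from each gene, read 5′ to 3′ from the GRCm38.p6 reference, which is not the DBA/2J genome. Capitals mark bases that differ from the Kcnh7 piece.
Kcnh7, chr2:62862551-62862650, plus strand: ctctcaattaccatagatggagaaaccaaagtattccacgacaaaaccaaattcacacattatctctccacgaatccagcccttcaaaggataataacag
Kcnh1, chr1:192469736-192469835, minus strand: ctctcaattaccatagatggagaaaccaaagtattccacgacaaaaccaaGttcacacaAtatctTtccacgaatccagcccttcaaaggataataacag
Kcnh5, chr12:74928722-74928821, plus strand: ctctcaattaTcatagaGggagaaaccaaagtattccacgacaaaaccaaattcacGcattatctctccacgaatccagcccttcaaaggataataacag
Kcnq3, chr15:66059603-66059702, plus strand: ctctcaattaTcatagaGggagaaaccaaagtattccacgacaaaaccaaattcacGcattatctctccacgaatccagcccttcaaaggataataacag
Kcnd2, chr6:21453388-21453487, plus strand: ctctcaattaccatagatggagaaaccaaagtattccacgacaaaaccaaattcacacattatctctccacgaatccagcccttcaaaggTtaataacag
Kcnb2, chr1:15496081-15496180, minus strand: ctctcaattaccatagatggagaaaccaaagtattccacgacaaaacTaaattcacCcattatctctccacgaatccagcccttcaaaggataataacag
Kcnma1, chr14:23411992-23412091, plus strand: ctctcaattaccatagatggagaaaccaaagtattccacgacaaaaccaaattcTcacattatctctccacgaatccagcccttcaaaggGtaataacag
Kcnj3, chr2:55493615-55493714, plus strand: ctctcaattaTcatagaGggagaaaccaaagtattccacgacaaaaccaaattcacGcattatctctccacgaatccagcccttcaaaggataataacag
Kcnt2, chr1:140316518-140316617, minus strand: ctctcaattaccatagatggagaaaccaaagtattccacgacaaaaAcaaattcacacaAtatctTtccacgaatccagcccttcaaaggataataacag
Kcnip4, chr5:48524384-48524483, plus strand: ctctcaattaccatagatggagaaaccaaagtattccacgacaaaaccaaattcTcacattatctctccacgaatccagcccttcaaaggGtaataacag
Each of the 9 other pieces differed from Kcnh7 at 1 to 3 of 100 bases. The Kcnh5, Kcnq3 and Kcnj3 pieces were identical to each other, although these genes lie on different chromosomes, and so were the Kcnma1 and Kcnip4 pieces. The pieces were picked to align without gaps and to lie where islands of both marks reached at least 11 libraries. That both marks lie over each piece, in 11 libraries or more, was therefore set by the choice. H3K9me3 islands lay over these pieces in 19 to 22 of the 22 libraries and H3K36me3 islands in 11 to 22.

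A few other stretches carried no such sequence, and 2 of them, both in Kcnh1, are shown because they recurred for H3K36me3 and not for H3K9me3. The first is the start of a tandem repeat, with its first unit of 48 bases in capitals, and the last is the start of a CA repeat, with runs of CACACA in capitals. Both are from GRCm38.p6.
Kcnh1, chr1:192230001-192230200, plus strand: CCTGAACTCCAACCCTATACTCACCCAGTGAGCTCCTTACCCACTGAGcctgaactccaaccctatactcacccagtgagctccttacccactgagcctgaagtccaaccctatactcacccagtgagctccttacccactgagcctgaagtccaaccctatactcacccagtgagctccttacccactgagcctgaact
Kcnh1, chr1:192195201-192195400, plus strand: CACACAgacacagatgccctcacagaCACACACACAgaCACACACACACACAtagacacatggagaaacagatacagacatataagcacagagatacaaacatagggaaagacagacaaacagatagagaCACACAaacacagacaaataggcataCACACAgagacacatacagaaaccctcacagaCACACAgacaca
Of 23640 windows of 200 bp in the members' bodies, 719 (3.04%) held CACACACACACA on either strand.

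Islands covered little of any channel gene. Among the ether-a-go-go channels, a family of voltage-gated channels, the H3K9me3 share of the body covered was 2.32% in the lowest library, 3.18% in the median and 3.91% in the highest of 22 for Kcnh7. The same 3 values were 1.29, 2.86 and 4.36% for Kcnh5 and 0.564, 1.19 and 1.82% for Kcnh1. So the lowest Kcnh7 library lay above the highest Kcnh1 library, while Kcnh5 overlapped both. For H3K36me3 the order within the family was different, with Kcnh5 at 1.78, 3.50 and 5.85%, Kcnh7 at 1.39, 2.36 and 3.71% and Kcnh1 at 0.25, 2.13 and 3.63%, and all 3 ranges overlapped.

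The other voltage-gated members differed in H3K9me3. Kcnb2, a delayed rectifier, had the highest median of the 10 genes (0.779, 3.23 and 4.22% in the lowest, median and highest library). Kcnd2, which carries the fast A current of dendrites, had 1.05, 1.79 and 2.64%, and Kcnq3, a subunit of the M current that restrains repetitive firing, had 0.866, 1.60 and 2.66%. H3K36me3 shares of the same genes were 0.504, 1.81 and 3.76% for Kcnb2, 0.622, 1.46 and 2.80% for Kcnd2, and 0, 1.07 and 1.60% for Kcnq3. The range of Kcnb2 was the widest of these, and for H3K36me3 it holds a difference between male ethanol and male water pools that is described further on.

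The ion-activated members lay apart. Kcnma1, the large-conductance BK channel opened by calcium, had the lowest H3K9me3 share of all members, at 0.166, 0.565 and 0.828%, whereas Kcnt2, opened by sodium, had 1.04, 2.43 and 3.88%. Every Kcnt2 library lay above every Kcnma1 library for this mark. The inward rectifier Kcnj3, a subunit of the GIRK channel, had 0.987, 1.97 and 2.71%, and Kcnip4, an auxiliary protein that binds Kcnd2 and slows its inactivation, had 1.11, 1.88 and 2.84%. For H3K36me3, the values were 0.414, 0.993 and 2.45% (Kcnma1), 1.04, 2.49 and 3.72% (Kcnt2), 0, 1.91 and 3.08% (Kcnj3) and 0, 1.22 and 2.08% (Kcnip4). The libraries at 0, with no island anywhere in the gene, were female water 5 for Kcnq3, female water 4 for Kcnip4 and male water 3 for Kcnj3.

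In the order of medians, the ranges of neighbours overlapped in 9 of 9 neighbouring pairs for each mark, so no neighbour could be told from the next by its spread. Of the 45 pairs of members, 8 did not overlap for H3K9me3: Kcnma1 lay below 7 genes, that is all but Kcnb2 and Kcnh1, and Kcnh1 lay below Kcnh7. For H3K36me3, only Kcnh5 and Kcnq3 did not overlap. Other genes of such length had like shares. Among 1404 other autosomal protein-coding genes with bodies of at least 150 kb, the median share was 1.42% for H3K9me3 and 1.78% for H3K36me3, and the members' medians stood above 38.2% (Kcnma1) to 71.2% (Kcnb2) of these genes for H3K9me3 and above 32.2% (Kcnma1) to 77.1% (Kcnh5) for H3K36me3.

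**Figure D1:**
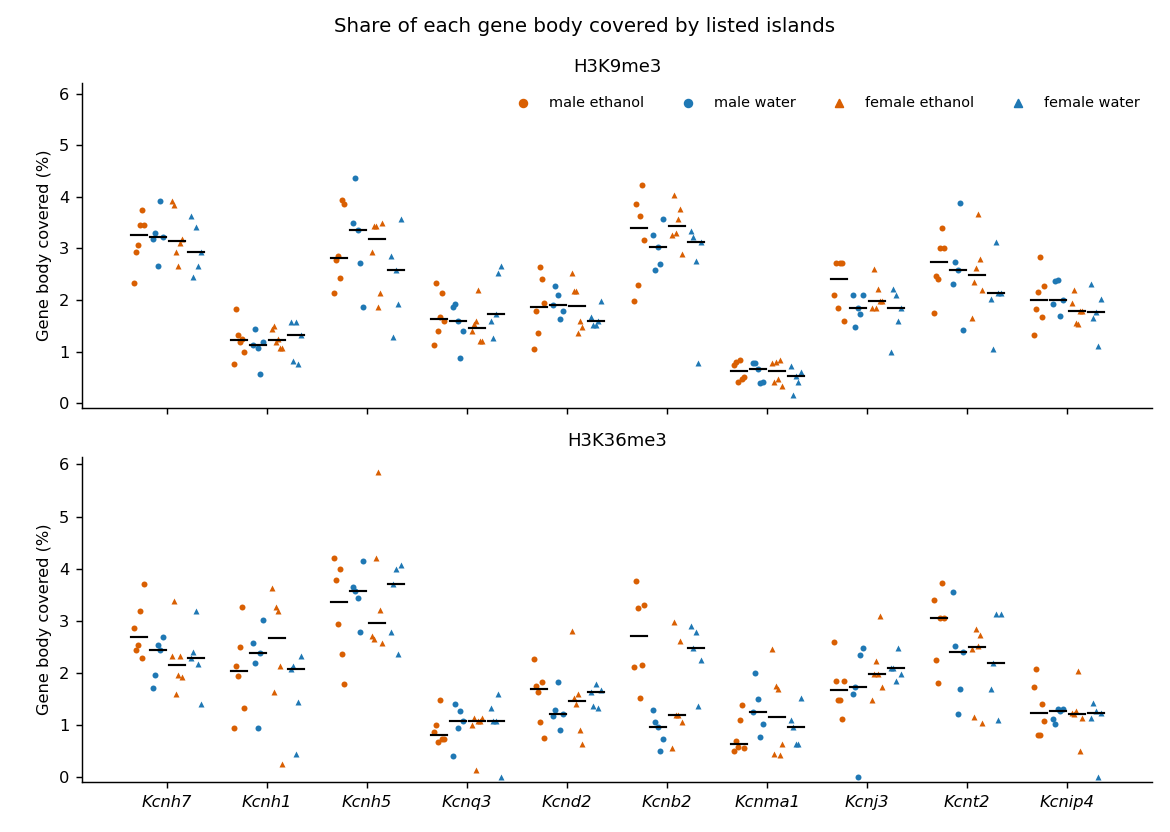
Percent of each gene body covered by listed islands (vertical axis) for the 10 channel genes, per library, by mark, sex and treatment. Points are libraries (circles male, triangles female, orange ethanol, blue water) and lines are group medians, and Kcnma1 is the lowest gene for H3K9me3, with a median of 0.565%, against 3.23% for Kcnb2.

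The covered parts were few, and some of them fell at the same positions in many libraries. Between 91.4% (Kcnb2) and 98.9% (Kcnma1) of the 200 bp windows of a body were in no H3K9me3 island of any library, and for H3K36me3 these shares were 86.4% (Kcnh5) to 95.5% (Kcnip4). Many covered windows did not recur. H3K36me3 windows in islands of only 1 or 2 libraries outnumbered those in 11 or more in every member but Kcnh7, as in Kcnb2 with 96 against 16. For H3K9me3 they did so in Kcnq3, Kcnd2 and Kcnb2 and not in the other members. A stretch was called recurrent where islands of at least 11 of the 22 libraries covered it, and the members held 28 recurrent H3K9me3 stretches and 27 recurrent H3K36me3 stretches. The 2 marks mostly shared them: 21 of the 28 (75%) overlapped a recurrent H3K36me3 stretch and 21 of the 27 (77.8%) overlapped a recurrent H3K9me3 stretch, against 59.6% and 72.2% in the other long genes. Of the H3K9me3 stretches 17 reached all 22 libraries, and of the H3K36me3 stretches 5 did. They were 200 to 5600 bp long and held most of the reads assigned to a gene for H3K9me3, from a median of 73.1% (Kcnt2) to 97.7% (Kcnma1) per library. For H3K36me3 the medians ran from 38.9% (Kcnb2) to 91.7% (Kcnj3), so islands that come and go between libraries hold most of the H3K36me3 reads of Kcnb2.

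None of the recurrent stretches touched an exon. H3K9me3 islands covered no exonic base of any member in any library, and H3K36me3 islands did so in at most 4 libraries (Kcnma1). No island lay within 1 kb of a 5′ end in any library, nor in the promoter windows that were at hand for 8 members. The nearest recurrent stretch was the CA repeat of Kcnh1, in intron 1 and 4.43 kb from the 5′ end, which was in H3K36me3 islands of 19 libraries and in an H3K9me3 island of 1 library.

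The map of the gene bodies shows where the stretches lie. In the ether-a-go-go genes, Kcnh7 had the most H3K9me3 stretches, 5 of them, including chr2:62822201-62826400 in intron 6 and chr2:62861401-62867000 in intron 3 of its 15 introns. Kcnh5 had chr12:74910801-74913600 and chr12:74927801-74933000, both in its last intron, and Kcnh1 had chr1:192467201-192470800, also in the last intron. Intron 1 held the stretches of Kcnb2, whose main one was chr1:15492201-15497000, of Kcnd2 (chr6:21395001-21399200 and chr6:21452401-21457800) and of Kcnq3 (chr15:66059601-66061800 and chr15:66063601-66065600). Intron 21 of Kcnma1 held its only H3K9me3 stretch (chr14:23411001-23415200) and intron 3 of Kcnj3 its only one (chr2:55492601-55495800). The longest stretch of Kcnt2 was in intron 1 (chr1:140312001-140317600). Of the 7 H3K9me3 stretches of Kcnip4, 6 lay in intron 1, and the remaining one, chr5:48391601-48393600, overlaps the gene 5730480H06Rik as well, so its reads cannot be given to 1 gene.

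**Figure D2:**
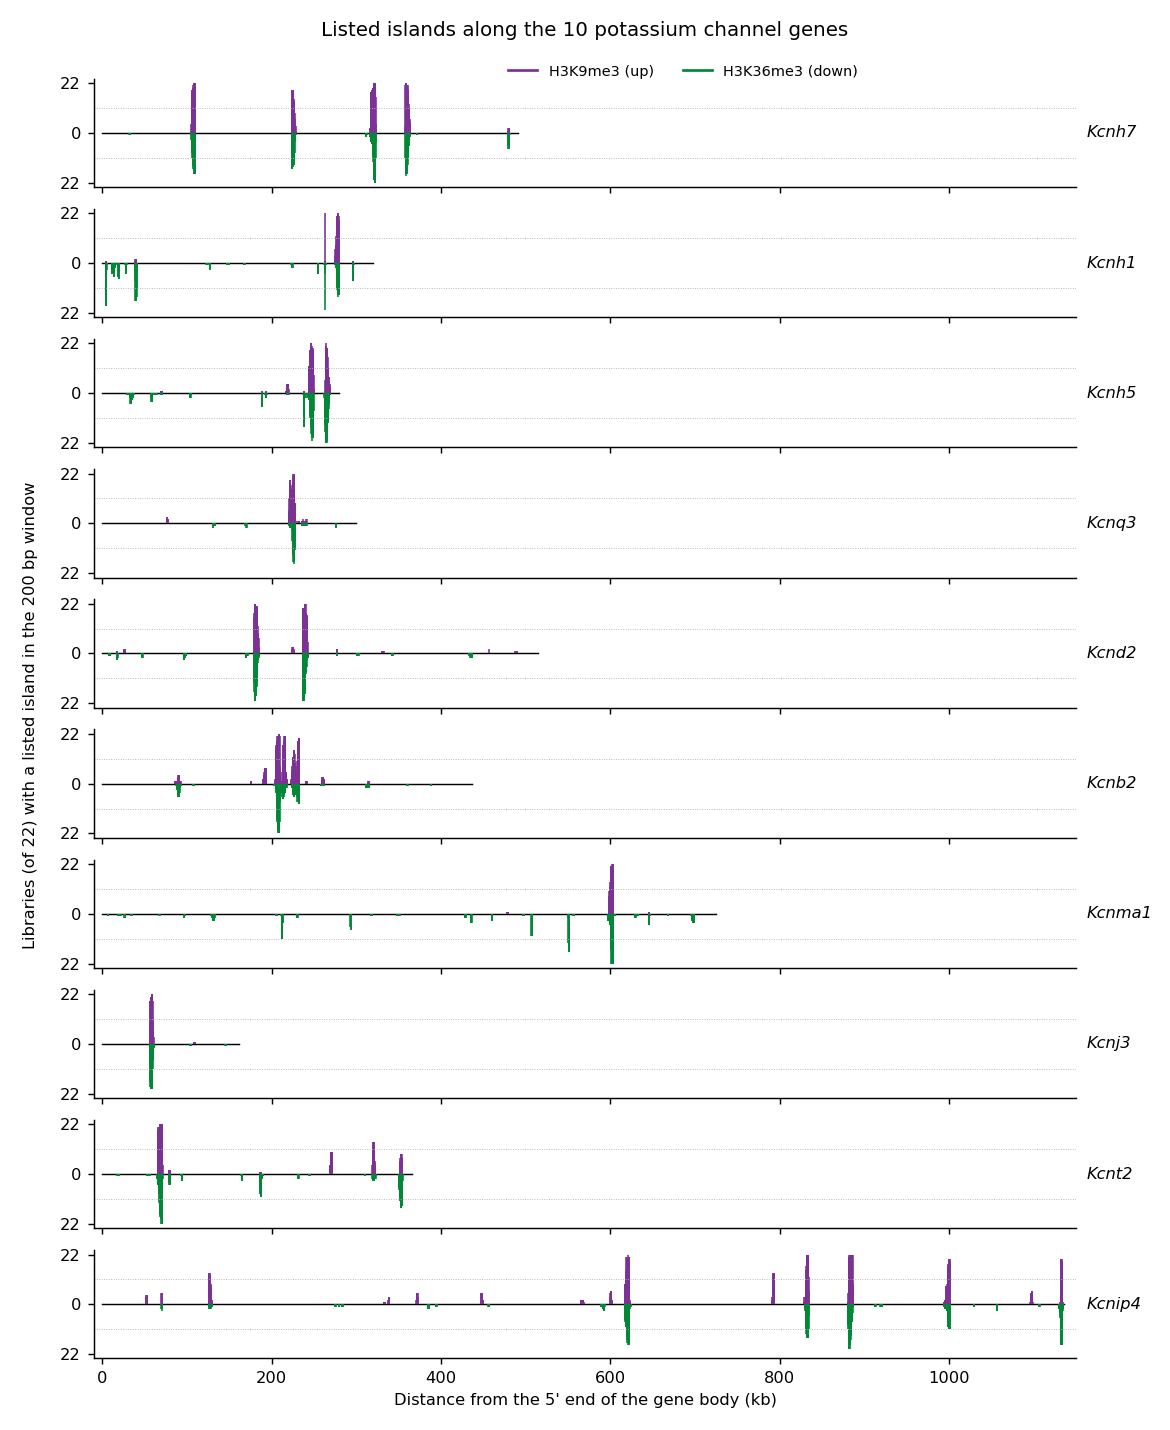
Positions of listed islands along the bodies of the 10 channel genes, in kb from the 5′ end, with the number of libraries (of 22) in which a 200 bp window lay in an island of H3K9me3 (up) or H3K36me3 (down), and dotted lines at 11 libraries. Most windows are in no island, and each of the 10 genes has at least 1 position where both marks reach 11 libraries.

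What these stretches had in common was sequence. Joined over the 2 marks they made 33 stretches, and 27 of them aligned over at least 500 bp with at least 10 others. Of these 27, 19 were recurrent for both marks and lay in all 10 genes, 7 were recurrent for H3K9me3 only and lay in 4 genes, and 1, in Kcnt2, for H3K36me3 only. The longest alignment was between Kcnh7 chr2:62861401-62867000 and Kcnt2 chr1:140312001-140317600, which were 95.1% identical over 5441 bp on opposite strands. These stretches were repeats by the reference's own masking, with a median of 100% of bases soft-masked for H3K9me3 and 99.9% for H3K36me3, against 17.4% (Kcnma1) to 32.2% (Kcnj3) of the whole bodies. The class of repeat was not assigned here. The same sequence was common at recurrent stretches elsewhere: 27 of the 28 H3K9me3 stretches of the members (96.4%) aligned over at least 500 bp to Kcnh7 chr2:62861401-62867000, against 4074 of 4724 (86.2%) in the other long genes. For H3K36me3 this was 20 of 27 (74.1%) against 2606 of 3965 (65.7%).

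Not every copy of the sequence lay in islands. Aligning Kcnh7 chr2:62861401-62867000 to the 10 bodies found 75 copies of about 1000 bp or more, the Kcnh7 stretch itself among them. That stretch was chosen as the longest recurrent one. A copy was counted by its window with the most libraries, and longer copies have more windows, so the counts by length are not on equal terms. Of the 16 copies of at least 4000 bp, which lay in all 10 genes, 15 were in H3K9me3 islands of at least 11 libraries and 14 in H3K36me3 islands of at least 11. Below 11 libraries for both marks was a Kcnb2 copy, chr1:15462981-15467547, 86.7% identical to the Kcnh7 stretch, which was in an H3K9me3 island of 1 library and in no H3K36me3 island. Of the 18 copies of 2000 to under 4000 bp, 7 and 4 reached 11 libraries for H3K9me3 and H3K36me3, and of the 41 shorter copies, 4 and 3 did. High identity did not always go with an island, since 2 short Kcnip4 copies of 98.1 and 97.6% identity were in no H3K9me3 island of any library. Only reads that map to 1 place were kept by the authors, and the part of this in which copies were listed was not tested.

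**Figure D3:**
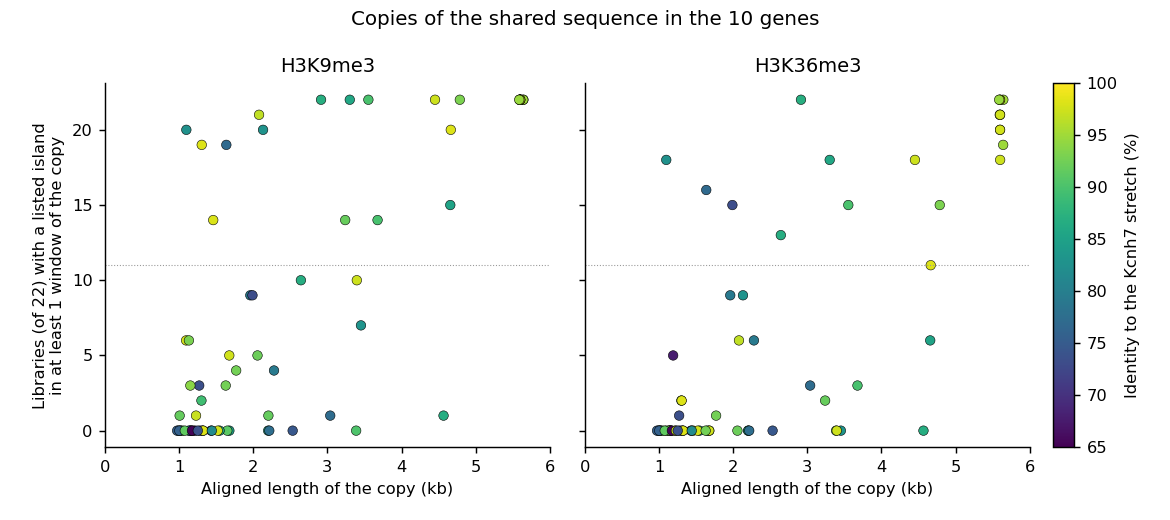
Copies of the Kcnh7 stretch in the bodies of the 10 channel genes: aligned length in kb (horizontal axis) against the number of libraries, of 22, with an island at the copy (vertical axis), for each mark, coloured by identity to the Kcnh7 stretch, with a dotted line at 11 libraries. Of the 16 copies of 4000 bp or longer, the Kcnh7 stretch itself included, 15 reach 11 libraries for H3K9me3 and 14 for H3K36me3.

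ChIP reads stood only slightly above input at the shared sequence, as they did over the lists as a whole. The fold of ChIP over scaled input in the lists had a median over libraries of 1.03 to 1.68 across the 27 H3K9me3 stretches of this sequence and 0.996 to 1.58 across the 21 H3K36me3 stretches. Over all listed islands the median fold of a library was 1.17 to 1.71 for H3K9me3 and 1.05 to 1.71 for H3K36me3. Low folds were therefore not particular to this sequence. The strongest H3K9me3 stretch by significance was Kcnh7 chr2:62822201-62826400, with folds of 1.36, 1.68 and 2.94 in the lowest, median and highest library and an FDR of 0.01 or lower in all 22. The H3K36me3 island at Kcnh7 chr2:62861401-62864400 was in all 22 libraries with a median fold of 1.12, and in 5 of them its FDR was 0.01 or lower. At Kcnip4 chr5:48691001-48693800 H3K36me3 islands were in 15 libraries with a median fold of 0.996, and 1 of them had such an FDR. So a stretch that recurs in the lists need not be one where the mark exceeds input.

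Another 5 stretches were recurrent for H3K36me3 and not for H3K9me3. The 4 CA repeats, each 800 bp, lay in Kcnh1, in Kcnh5 (chr12:74938801-74939600) and in Kcnma1 (chr14:23463401-23464200 and chr14:23802001-23802800). They had median H3K36me3 folds of 1.13 to 1.68 and 30.6 to 46.0 input reads per kb, against 19 to 27.9 input reads per kb at the shared sequence. The tandem repeat of Kcnh1, chr1:192230001-192231800, had a median fold of 1.45 in 17 libraries and 23.5 input reads per kb. No recurrent H3K9me3 stretch of the members overlapped any of these 5. At least 5 matches to CACACACACACA on either strand, overlaps counted, were in 6 of the 27 H3K36me3 stretches of the members (22.2%) and 868 of 3965 in the other long genes (21.9%), and for H3K9me3 in 1 of 28 (3.57%) and 193 of 4724 (4.09%).

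**Figure D4:**
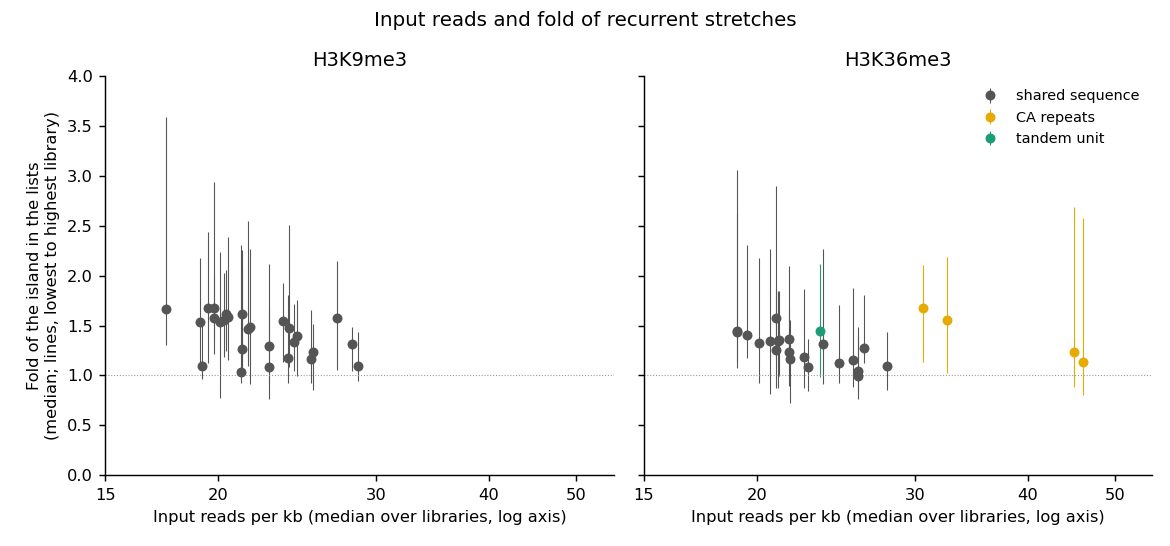
Median fold of ChIP over scaled input reads in the deposited lists (vertical axis, lines from the lowest to the highest library) against median input reads per kb (horizontal log axis) at recurrent stretches of the shared sequence, the CA repeats and the tandem repeat, by mark. The CA repeats, in the H3K36me3 panel only, have 30.6 to 46.0 input reads per kb and lie to the right of the shared sequence.

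The comparison of ethanol with water asks whether adolescent binge dosing changed either mark over these genes, in each sex. Calls were made at the unadjusted p of 0.05 that the study used and, beside it, after Benjamini-Hochberg adjustment over all genes tested. Of 140 tests of the 10 members over gene bodies, 6 were at or under an unadjusted p of 0.05, and none had an adjusted p of 0.05 or lower by edgeR or limma. In the same comparisons 0.458 to 13.8% of all genes tested were at or under an unadjusted p of 0.05. The adjusted calls over all genes and regions numbered 0 in each comparison but the sex by treatment interaction of H3K9me3 reads, where 2 of 4286 genes passed.

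H3K9me3 reads over the channel genes gave no call in either sex. For Kcnh7, ChIP reads in the lowest, median and highest library were 452, 642 and 997 in male ethanol and 511, 644 and 657 in male water, and 539, 596 and 806 in female ethanol and 467, 595 and 634 in female water. Kcnb2 had 287, 538 and 879 against 371, 483 and 512 reads in males, and 465, 532 and 560 against 121, 444 and 459 reads in females. In both genes the groups overlapped in males, the highest male ethanol values coming from the library with the most island reads. In female pools every Kcnb2 ethanol library lay above every water library in raw reads, but per 1000000 island reads (RPM) they overlapped, at 57.3, 64.2 and 69.1 in ethanol and 20.4, 52.9 and 78.6 in water. No member passed edgeR's quasi-likelihood test at an unadjusted p of 0.05 in males, where 1.79% of 3566 genes did, nor in females, where 2.22% of 3562 did, and DESeq2 also called 0 of the 10 in either sex. The log2 fold changes of the 10 genes spanned -0.11 to 0.32 in males and, in females, -0.34 to 0.32. Their medians were 0.06 and 0.11, beside 0.01 and 0.05 over all genes tested. The share covered gave 0 calls among the members in each sex by limma, against 2.37% of genes in males and 4.73% in females. The interaction of sex and treatment likewise gave 0, against 6.56%.

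H3K36me3 reads differed by treatment in 1 member, Kcnb2, in males. The share of its body covered was 2.11, 3.76, 3.25, 1.51, 2.15 and 3.30% in the 6 male ethanol libraries and 1.28, 1.05, 0.962, 0.504 and 0.733% in the 5 male water libraries, so the groups did not overlap. ChIP reads were 207, 464, 362, 100, 248 and 430 in male ethanol and 133, 141, 109, 64 and 98 in male water, where 1 ethanol library, male ethanol 4, with the fewest reads of all, fell among the water libraries. For the test, reads were scaled to the ChIP reads in all listed islands, with TMM factors, and not to sequencing depth. The log2 fold change was 1.53 (SE 0.33), with an unadjusted p of 5.07e-04 and an adjusted p of 0.400 by edgeR, and the gene ranked 6 of 5783. Among all genes tested 3.06% passed at 0.05, and of the 10 members 1 did. Of the other long genes 96 of 1232 (7.79%) passed, 84 of them higher. The share rose by 1.77 percentage points (SE 0.46), with an unadjusted p of 0.00194 and an adjusted p of 0.261 by limma, in a comparison where 13.8% of all genes and 1 of the 10 members passed. Most of the calls for the share went the other way: 85 of 3493 genes were called higher and 398 lower, with a median difference of -0.51 points, and of the other long genes 22 were called higher and 62 lower. Leaving out each male library in turn kept both calls, with log2 fold changes of 1.39 to 1.76 and share differences of 1.56 to 2.01 points. With each share divided by the covered share of all gene bodies in its library, a different scale, the difference was 0.84 times that share (unadjusted p of 0.00111 by limma).

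Females did not show this. Kcnb2 shares were 0.55, 2.98, 1.19, 1.19, 2.61 and 1.05% in female ethanol and 2.89, 2.47, 2.79, 1.37 and 2.25% in female water, and the groups overlapped. The log2 fold change was -0.25 (SE 0.39), with an unadjusted p of 0.541 by edgeR, and 0 of the 10 members passed, as against 0.458% of all genes. The interaction, as female minus male effect, was -1.76 (SE 0.53), with an unadjusted p of 0.00292 and an adjusted p of 0.607 by edgeR. The call was lost with the replicate number as a block (-1.77, unadjusted p of 0.0591) and with islands at an FDR of 0.01 or lower alone (-0.92, unadjusted p of 0.728). This was 1 of the 10 members, in a test that 7.98% of all genes passed. For the share, 0 of the 10 members passed in females, against 6.76% of all genes by limma.

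The reads of Kcnb2 in males were split into those inside and outside its recurrent stretch. Recurrent stretches were defined by islands in at least 11 of the 22 libraries, and islands of all 22 reached this one. The length listed inside it could therefore differ little, at 2600 to 3200 bp in male ethanol and 2200 to 3200 bp in male water. Outside it the length listed was 3400 to 13400 bp and 0 to 2600 bp. So the split places most of a difference in length outside by construction. Inside the recurrent stretch, chr1:15493801-15497000, male ethanol libraries held 72, 112, 81, 48, 71 and 104 H3K36me3 reads and male water libraries 64, 66, 83, 64 and 98, which overlap. Outside it they held 135, 352, 281, 52, 177 and 326 reads against 69, 75, 26, 0 and 0, so that all but male ethanol 4 lay above the water libraries. As a region, the recurrent stretch had a log2 fold change of 0.06 (SE 0.15, unadjusted p of 0.71 by edgeR). Input reads were counted in the same islands, so they rise with the length listed and are no independent measure of it. Their log2 fold change was 1.51 (SE 0.32, unadjusted p of 3.07e-04, adjusted p of 0.463), and the ratio of ChIP to input differed by 0.01 (SE 0.12) on the log2 scale. Islands that did not reach into the stretch numbered 2, 3, 2, 0, 3 and 3 in male ethanol and 2, 1, 0, 0 and 0 in male water. Those at an FDR of 0.01 or lower numbered 1, 0, 0, 0, 0 and 0 in male ethanol and 2, 1, 0, 0 and 0 in male water. So few of these islands were significant in male ethanol, and all of them were in male water. With significant islands alone the log2 fold change of the gene was 0.44 (unadjusted p of 0.834 by edgeR). The islands outside also fell at scattered places. Of 184 windows there, 119 were in islands of male ethanol libraries only, 4 of male water only and 38 of both, but none was in islands of at least 4 male ethanol libraries and of no water library. Where islands lay also moved with treatment in males. Gene bodies held 20.9, 25.2, 21.3, 26.3, 35.5 and 21.9% of the H3K36me3 island length in male ethanol and 34.6, 35.3, 35.0, 28.2 and 32.5% in male water. For islands at an FDR of 1e-05 or lower they held 73.0% in male ethanol 5, 18.8 to 31.0% in the other male ethanol libraries and at least 47.5% in each male water library. In both cases every ethanol library but male ethanol 5 lay below every water library. The part of this, of depth or of input in the Kcnb2 difference was not tested.

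**Figure D5:**
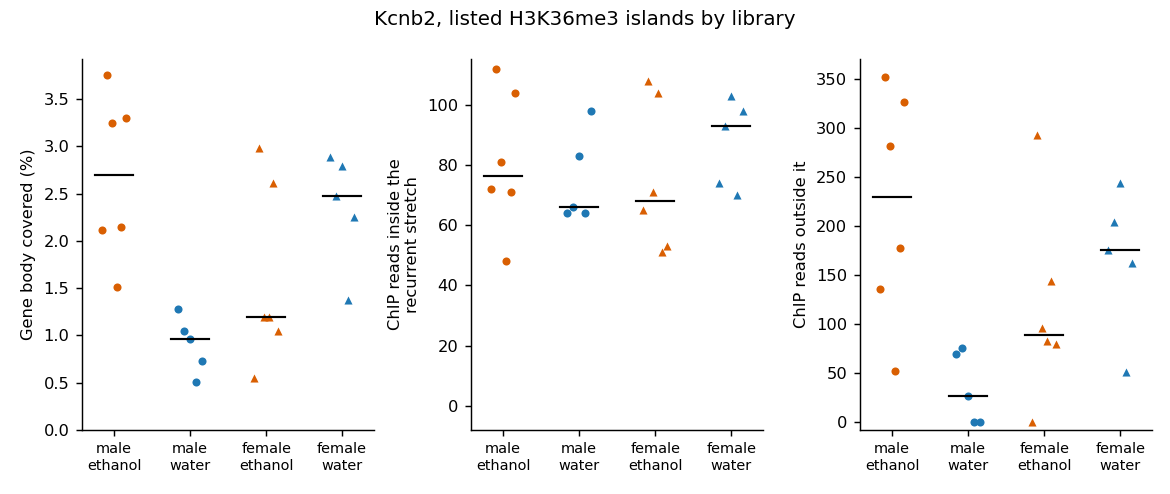
H3K36me3 over Kcnb2 in each library, by sex and treatment, with lines at the group medians: percent of the body covered, ChIP reads of listed islands inside the recurrent stretch, and ChIP reads outside it. Inside, male ethanol libraries hold 48 to 112 reads and male water libraries 64 to 98, whereas outside they hold 52 to 352 and 0 to 75.

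The other 9 members did not pass for H3K36me3 reads in either sex. Kcnma1 had the lowest male value, with a log2 fold change of -0.57 (SE 0.30, unadjusted p of 0.0807 by edgeR), its reads being 98, 166 and 364 in male ethanol and 234, 273 and 488 in male water. Kcnh7 was the nearest in the other direction, at 0.48 (SE 0.25, unadjusted p of 0.0730), with 257, 346 and 554 against 169, 349 and 410 reads. In both genes the groups overlapped. Kcnma1 passed at 0.05 with DESeq2, without TMM factors and without male ethanol 4, and both genes passed without male ethanol 5. Without male ethanol 5 the share of all genes called rose to 9.61%, and over all settings it ran from 0.590 to 14.6%. The median log2 fold change of the 10 members was 0.27 in males and 0.19 in females, beside -0.51 and -0.03 over all genes tested and -0.06 and 0.10 over the other long genes.

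Dividing ChIP by input reads within the islands gave small differences. For H3K9me3 the members' log2 ratio, centred per library, passed limma's test in 0 of 10 genes in males (5.58% of all genes did) and in 1 of 10 in females (5.56% did). That gene was Kcnh1, higher by 0.29 in female ethanol (SE 0.13, unadjusted p of 0.0472, adjusted p of 0.884). Its ChIP reads had a log2 fold change of -0.14 (SE 0.13, unadjusted p of 0.303) and the input reads of the same islands one of -0.44 (SE 0.14, unadjusted p of 0.00785, adjusted p of 0.999 by edgeR), so the higher ratio came with lower input. Without the reads of 1 of its recurrent stretches the difference was 0.12 (unadjusted p of 0.369), so the call rested on it. For H3K36me3, 0 of 10 members passed in males (9.72% of all genes did) and 2 of 10 in females (4.89% did): Kcnq3, by 0.41 (SE 0.16, unadjusted p of 0.0218), and Kcnb2, by 0.23 (SE 0.11, unadjusted p of 0.0432), each with an adjusted p of 0.942. Kcnq3 rests on few reads, with 25, 98 and 132 ChIP reads in female ethanol and 0, 97 and 101 in female water. Female water 5, with no island there, has no ratio and was left out of its fit, and without female water 1 the difference was 0.32 (unadjusted p of 0.0866). The Kcnb2 call was lost without female ethanol 1, 3 or 6 or female water 2, 3 or 5, with differences of 0.18 to 0.24 and unadjusted p up to 0.0983 by limma. It was also lost with a pseudocount of 10 (0.21, unadjusted p of 0.0503), without centring (0.18, unadjusted p of 0.412) and with the replicate block (0.20, unadjusted p of 0.111). The Kcnq3 call was lost without centring (0.42, unadjusted p of 0.0697). The Kcnh1 call was lost without female ethanol 1, 2, 3 or 5 or female water 1, 2 or 4, with differences of 0.24 to 0.30 and unadjusted p up to 0.114. It was also lost without centring (0.32, unadjusted p of 0.0586) and with islands at an FDR of 0.01 or lower alone (0.13, unadjusted p of 0.181).

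Single recurrent stretches were tested as regions where all libraries of a sex had an island. Of 54 such tests of the members' stretches, 3 passed at an unadjusted p of 0.05 by edgeR, and none after adjustment. For H3K9me3 in males, 1 of 19 stretches passed (2.92% of all regions did): Kcnb2 chr1:15492201-15497000, by 0.31 (SE 0.14, unadjusted p of 0.0411, adjusted p of 0.999), with 21.9, 24.5 and 27.5 RPM in ethanol and 13.5, 22.4 and 23.9 in water. The input reads at this stretch ran in the same direction, at 18, 22.5 and 27.6 RPM against 13.6, 19.3 and 24.4. In females 0 of 18 passed (3.99% of all regions did). For H3K36me3 in males, 2 of 8 passed (5.71% of all regions did), both in ether-a-go-go genes and in opposite directions. Kcnh7 chr2:62861401-62864400 was higher by 0.31 (SE 0.14, unadjusted p of 0.0397, adjusted p of 0.846), with 18.1, 24.7 and 29.6 RPM in ethanol and 14.9, 19.7 and 21.8 in water. Kcnh5 chr12:74910201-74914400 fell by 0.36 (SE 0.14, unadjusted p of 0.0225, adjusted p of 0.846), with 17.7, 24.7 and 27.2 against 19.9, 30.2 and 36. The groups overlapped at each of the 3 stretches, and in females 0 of 9 passed (3.58% of all regions did). The Kcnb2 call was lost without male ethanol 1, 2, 3, 4 or 6 or male water 4 or 5, with differences of 0.19 to 0.31 and unadjusted p up to 0.111 by edgeR, and with islands at an FDR of 0.01 or lower alone (0.31, unadjusted p of 0.0570). The Kcnh7 call was lost without male ethanol 1, 2, 4 or 5 or male water 1 or 3 (0.24 to 0.32, unadjusted p up to 0.115), and the Kcnh5 call without male ethanol 3 or male water 3 or 4 (-0.32 to -0.31, unadjusted p up to 0.0657), without TMM factors (-0.29, unadjusted p of 0.0988) and with the replicate block (-0.34, unadjusted p of 0.0678).

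The rest of the potassium channel family was taken whole, as the 84 other genes with symbols in Kcn. Most had too few reads to test: 19 and 20 of them were tested for H3K9me3 in males and females, and 26 and 30 for H3K36me3. Only 1 passed in these 4 comparisons at an unadjusted p of 0.05 by edgeR, 1 of the 26 for H3K36me3 in males (3.85%, beside 3.06% of all genes). It was Kcnh8, another ether-a-go-go gene, with a log2 fold change of 1.22 (SE 0.25, unadjusted p of 2.52e-04, adjusted p of 0.400). The gene with the smallest p in each of the other comparisons was Kcnu1 for H3K9me3 in males (-0.49, unadjusted p of 0.185), Kcnip1, which encodes another channel-interacting protein, for H3K9me3 in females (0.27, unadjusted p of 0.145) and Kcnip1 again for H3K36me3 in females (0.63, unadjusted p of 0.0789). None of these passed. In the H3K36me3 interaction 4 of 37 passed (10.8%, beside 7.98% of all genes), and for the H3K36me3 share in males 2 of 19 did (10.5%, beside 13.8%). For the ratio of ChIP to input, 1 of 19 passed for H3K36me3 in males (5.26%, beside 9.72%), 1 of 16 for H3K9me3 in males (6.25%, beside 5.58%) and 1 of 17 in females (5.88%, beside 5.56%), and 0 of 20 for H3K36me3 in females (4.89% of all genes did).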

How the data were processed

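Per the labels and the study's methods, 8 technical precipitations per antibody were combined for each pool, reads were trimmed with cutadapt, checked with FastQC and aligned to GRCm38 with Bowtie2 2.4.1, blacklisted and multiply mapping reads were dropped, and SICER called islands against the input with 200 bp windows and gaps of 400 bp (H3K9me3) or 600 bp (H3K36me3). The deposited lists hold, per island, counts of ChIP and input reads, a p-value, the fold as a ratio of ChIP to scaled input, and an FDR, as the authors' caller gave them. Columns with no sample numbered 0. Per the labels, 1 input library per pool served both marks.

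Reads were apportioned to GENCODE vM21 gene bodies (from the first to the last base of a gene) and to recurrent stretches by overlapped length and rounded. edgeR 4.0.16 (quasi-likelihood test, TMM, filterByExpr, library size as ChIP reads in islands) tested reads and regions. limma 3.58.1 tested the share covered and log2 of ChIP over input with a pseudocount of 1, centred per library, for genes with an island in at least 8 of 11 libraries. All 10 members were testable in the gene-body comparisons. Each sex was fitted on its own 11 libraries, and the interaction on 22, over all protein-coding genes, with Benjamini-Hochberg adjustment. Fits ran in R 4.3.3, DESeq2 1.42.0 was an alternative, and blastn 2.17.0 found copies. The fits were tested on simulated data. The errors given are those between pools.

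All 10 members are named, and of the other Kcn genes the one with the smallest p in each mark and sex. The members and gene lists were chosen with earlier results of these data known. Alternatives were stricter islands, other normalizations, no low-count filter, another pseudocount, no centring, a replicate block and leaving out each library; input reads in place of ChIP reads and Kcnh1 without 1 of its recurrent stretches, which is counted but not reported here, were added after seeing the data. RNA-seq of the same pools was not analysed here.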

Additional observations from a re-analysis of the deposited data

Results flagged for a closer look

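Of 240 groups of values of the members (share covered, reads per 1000000 island reads (RPM) and centred log2 ratio, by mark, sex and treatment), 14 held 1 library far from the others by Dixon's test at 95%, and chance alone flags about 1 in 20 such groups. No explanation was tested for any of them.

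For H3K9me3, Kcnd2 had 65.1 RPM in male water 2, where the next library had 52.5. The share of Kcnb2 was 0.779% in female water 4, below the next library at 2.75%. Kcnma1 had 9.59 RPM in female water 2, the library with the fewest significant islands, and 19.1 in the next.

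For H3K36me3, the centred log2 ratio of Kcnh1 was 0.42 in male ethanol 1, above the next at -0.15. In female ethanol 6 it was -1.52, below the next at -0.43. Kcnq3 had 45.3 RPM in male ethanol 4, the library with the fewest reads, against 25.1 in the next. In female ethanol 3 Kcnq3 had a share of 0.133% (next 0.999%), 6.54 RPM (next 24.3) and a ratio of 0.82 (next 0.29). Kcnd2 had 102 RPM in female ethanol 1 (next 62.5) and a ratio of 0.21 in female water 4 (next -0.14). The ratio of Kcnb2 was -0.38 in male ethanol 5 (next -0.01). Kcnip4 had no H3K36me3 island in female water 4, so its share of 0% and its 0 RPM stood below the next library at 1.14% and 92.5 RPM.

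The ethanol effect on H3K36me3 reads of Kcnb2 differed between the sexes by -1.76 on the log2 scale (female minus male) in edgeR's interaction test, at an unadjusted p of 0.00292 and an adjusted p of 0.607. The call was lost with the replicate block (-1.77, unadjusted p of 0.0591) and with islands at an FDR of 0.01 or lower alone (-0.92, unadjusted p of 0.728). The input reads of the same islands, which rise with the length listed, had log2 fold changes of 1.51 in males and -0.42 in females.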

How the results depend on the processing

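Over the alternatives, values are the number of members at an unadjusted p of 0.05 or lower. Of the 9 called differences of members, none changed direction under the alternatives in which it could be fitted. With islands at an FDR of 0.01 or lower alone, 0 members passed for H3K36me3 reads in males (Kcnb2 0.44, unadjusted p of 0.834), the H3K36me3 interaction (Kcnb2 -0.92, unadjusted p of 0.728), the H3K9me3 ratio in females and H3K9me3 regions in males. The count was also 0 for the H3K36me3 share in males and ratio in females, and with an FDR of 1e-05 or lower for H3K36me3 reads and share in males, but there the members called above could not be fitted, so these counts say nothing of their differences. No H3K36me3 region of a member could be fitted at an FDR of 0.01, nor any member's H3K36me3 share in females at 1e-05. With that FDR 1 (Kcnh7) passed for the H3K9me3 share in females, a test that 3.15 to 8.83% of all genes passed over the settings. For H3K36me3 reads in males 2 passed (Kcnb2 and Kcnma1) with DESeq2, without TMM factors and with input reads. Over all settings 0.590 to 14.6% of all genes passed that test, and with input reads 1.97% did. With input reads 1 (Kcnh1, lower in ethanol) passed for H3K9me3 reads in females, where 2.28% of all genes did. Without TMM factors 1 (Kcnh1) passed for H3K9me3 regions in females, where 5.51% of all regions did. Without centring 0 passed for the ratio of either mark in females, with a pseudocount of 10, 1 passed for the H3K36me3 ratio in females, and without 1 of its recurrent stretches Kcnh1 no longer passed, leaving 0 for the H3K9me3 ratio.

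Pools with the same replicate number did not vary together (correlations from -0.24 to 0.09), so the numbers do not pair them. With the replicate block, 0 members passed the H3K36me3 interaction (Kcnb2 -1.77, unadjusted p of 0.0591 by edgeR) and 1 passed H3K36me3 regions in males (Kcnh7), and for the H3K36me3 ratio in females Kcnh1 passed in place of Kcnb2.

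Leaving out 1 library at a time gave 0 to 1 members for H3K9me3 reads in males, the H3K9me3 ratio and regions in each sex, the H3K36me3 ratio in males and H3K36me3 regions in females, 1 to 3 for H3K36me3 reads in males (3 without male ethanol 5), 1 to 2 for the H3K36me3 interaction and the H3K36me3 ratio in females, and 0 to 3 for H3K36me3 regions in males. Over all settings the share of all genes called ranged from 0.590 to 14.6% for H3K36me3 reads in males, 0.253 to 10.9% in females and 2.53 to 17.8% for the interaction, and from 0.770 to 8.21% and 0.212 to 10.9% for H3K9me3 reads in males and females. For the ratio, the share of all genes called over all settings was 4.78 to 5.85% in males and 3.23 to 6.32% in females for H3K9me3. For H3K36me3 the same shares were 3.28 to 14.4% and 1.57 to 6%. The share of all regions called was 2.36 to 3.91% in males and 3.04 to 5.51% in females for H3K9me3. For H3K36me3 regions it was 4.43 to 7.18% and 1.31 to 4.09%. The H3K36me3 lists hold fewer reads than the H3K9me3 lists.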
